A study of Homo sapiens with 6 samples.

Results

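Interferon-stimulated genes are the genes that cells switch on when interferon, or foreign RNA or DNA inside the cell, is detected. A list of 42 such genes, fixed by name, was followed across 6 microarrays of HSC3 cells, a human line from a squamous cell carcinoma of the tongue. Of the 42 genes, 39 had a probe that names them alone, among 18757 genes with such a probe. ISG15, IFITM2 and CMPK2 have no value here, because no probe is named for any of them alone. For the 7 genes with more than 1 such probe, values are those of the brightest by mean log2 signal.

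The arrays are CodeLink Human Whole Genome Bioarrays read in a single colour, with 1 array each for cells given siRNA against LEMD1, MIA2, TANGO (a name of MIA3), MATE2 (a name of SLC47A2) or MIA, and 1 array for control cells. The deposited design describes the control as a control siRNA, while the array section of the methods describes untreated cells. All cells are HSC3 grown in culture, and the comparisons ask how lowering each target changes gene expression. Every condition has 1 array, so the ratios have no error, no test and no p-value, and a culture effect cannot be told apart from an effect of the siRNA. If the control was untreated, an effect of transfection itself cannot be told apart either in ratios to control. A spot was used in a comparison when the scanner called it good on both arrays, and a gene was called lower or higher when its normalized signal differed at least 2-fold, that is by a log2 ratio of at least 1. For a spot near background only a bound of the fold is given, against the higher of its own signal and the lowest good signal of that array.

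In the usual pathway, secreted interferons bind receptors at the cell surface, JAK kinases phosphorylate STAT2, and this joins IRF9 in a complex that binds the interferon-stimulated response element (ISRE) in gene promoters. Sensors of double-stranded RNA start the same programme through IRF3 and IRF7, and many products of the programme are sensors or transcription factors themselves. Epithelial cells, including keratinocytes of the oral mucosa, hold this programme at a low basal level, and the labels name no interferon treatment here.

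The targets were checked first. The LEMD1 probe gave a spot near background with LEMD1 siRNA and with MIA2 siRNA, and a normalized signal of 195.1 on MIA and 277.9 on control. It was far brighter on the arrays labelled TANGO siRNA, at 3192, and MATE2 siRNA, at 1011. The MIA2 probe was at 168.7 on the array labelled MIA2 siRNA, against 155.3 on control, so the label is not borne out by this probe. SLC47A2 was at 79.6 on the array labelled MATE2 siRNA and at 58.95 on the array labelled TANGO siRNA, against 1510 on control. The MIA probe was near background on all 6 arrays and no probe is named for MIA3. The TANGO and MATE2 arrays stood apart from control, with 14.7% and 17.6% of all genes compared at least 2-fold different, against 0.65% on the MIA array. The squamous markers KRT5, KRT14, TP63 and EPCAM had good spots on all 6 arrays, as did KRT17, and the keratin signals differed between arrays. KRT14 had log2 ratios to control of 1.43 on LEMD1, 1.65 on MIA2, -4.12 on TANGO, -0.93 on MATE2 and 0.28 on MIA, KRT5 had 3.25, 3.04, 1.63, 1.08 and 0.26, and KRT17 was at 3.00 on MATE2 and between -0.28 and 0.55 elsewhere. The leukocyte markers PTPRC and ITGAM were near background on every array, as were the endothelial markers CDH5 and TEK, while PECAM1 (337.6 to 527.5) and COL1A1 (141.7 to 296.2) had good spots on all 6. COL1A1, a fibroblast gene, was 2-fold higher on the MATE2 array, at a log2 ratio of 1.06, and the part of these markers in the results was not tested. Good gene probes numbered 27545 to 30628 per array, and the lowest good signal was 27.5 to 38.6.

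Most of the interferon-stimulated genes were expressed in HSC3 cells. Of the 39 genes, 35 had a good spot on all 6 arrays (89.7%), against 61.0% of all genes with a named probe. The other 4, IFIT2, SAMHD1, TRIM22 and XAF1, were good on some arrays and near background on others. IFITM3, a membrane protein that blocks virus entry, had the brightest probe of the list, at 3892 on the LEMD1 siRNA array, 4806 on MIA2, 4389 on TANGO, 3566 on MATE2, 4604 on MIA and 4806 on control. Its values lay within a log2 range of 0.43, the narrowest of the 35 after MX2. IFITM1, its neighbour on chromosome 11, was at 2120 on the LEMD1 siRNA array, 2516 on MIA2, 2483 on TANGO, 1723 on MATE2, 2392 on MIA and 2223 on control. Neither differed 2-fold between any pair of arrays, and since the IFITM genes are close copies, their probes may share signal. SAMD9, a cytoplasmic antiviral factor and the third brightest probe, was at 1358 on the LEMD1 siRNA array, 971.5 on MIA2, 2604 on TANGO, 1347 on MATE2, 1722 on MIA and 1837 on control. Its log2 range of 1.42 lay between MIA2 and TANGO, and it was within 2-fold of control on every array.

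Over all 6 arrays, 20 of the 35 genes spanned at least 2-fold from their lowest to their highest array, beside 42.9% of all 11436 genes good on every array. The median log2 range was 1.09 for the 35 genes and 0.91 for all genes. The spread was very uneven within the list. BST2 spanned 3.54 on the log2 scale, IFI27 2.98, IRF1 2.75, IFIT3 2.35 and HERC5 2.29, while MX2, IFITM3, IFITM1, UBE2L6, DHX58, IFI6, IFIT5 and LGALS3BP all stayed between 0.42 and 0.65. The signals of different probes do not rank the genes' levels.

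**Figure D1:**
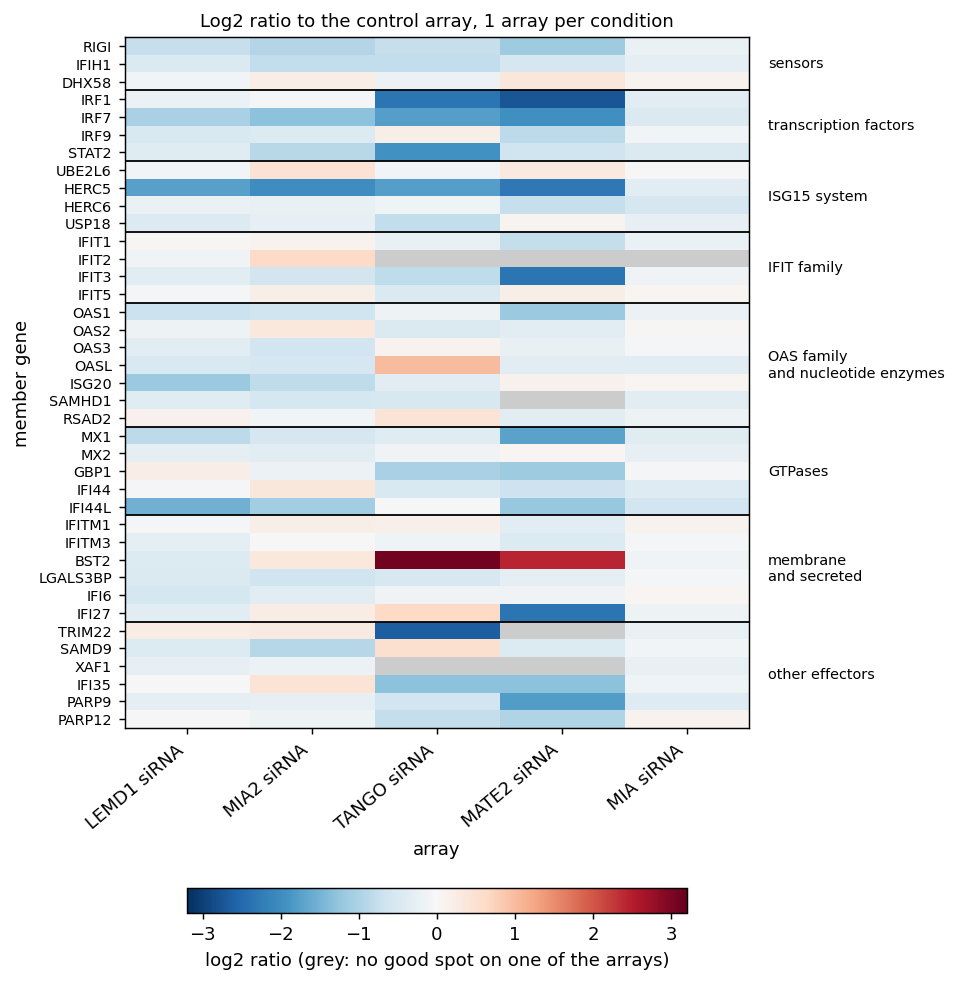
Log2 ratio to control (colour) of the 39 genes with a named probe (rows, in groups by role) on the 5 siRNA arrays (columns, 1 array each), with grey where a spot was not good on both arrays. HERC5 and IRF7 are blue in the first 4 columns, IRF1 is blue in the TANGO and MATE2 columns alone, and BST2 is red in those columns at 3.10 and 2.45.

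Against control, the count of genes at least 2-fold lower was 4 of 39 on the LEMD1 siRNA array (3.98% of all genes compared were lower), 3 of 39 on the array labelled MIA2 siRNA (5.21%), 7 of 37 on TANGO (9.09%), 12 of 35 on MATE2 (11.7%) and 0 of 38 on MIA (0.258%). As shares of the genes compared, these are 10.3%, 7.69%, 18.9%, 34.3% and 0%. Few were higher: none on LEMD1 (2.03% of all genes), MIA2 (3.29%) and MIA (0.391%), BST2 and OASL on TANGO (5.57%), and BST2 on MATE2 (5.95%). With 50 added to every signal the count on LEMD1 was 2 in place of 4, as IRF7 and ISG20 fell short of 2-fold, and OASL fell short on TANGO. The share of all genes at that setting was not computed. The share on the array labelled MATE2 siRNA was the farthest from that of all genes, and the share on the array labelled MIA2 siRNA was close to it. The medians lay below those of all genes on all 5 arrays. The median log2 ratio of the list was -0.35 on LEMD1 (-0.02 for all genes), -0.26 on MIA2 (-0.01), -0.39 on TANGO (-0.03), -0.64 on MATE2 (-0.03) and -0.18 on MIA (-0.04). On the LEMD1 siRNA array 34 of 39 genes lay below control, against 52.5% of all genes, on MIA2 26 of 39 (50.6%), on TANGO 29 of 37 (51.9%), on MATE2 28 of 35 (52.2%) and on MIA 30 of 38 (56.6%).

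**Figure D2:**
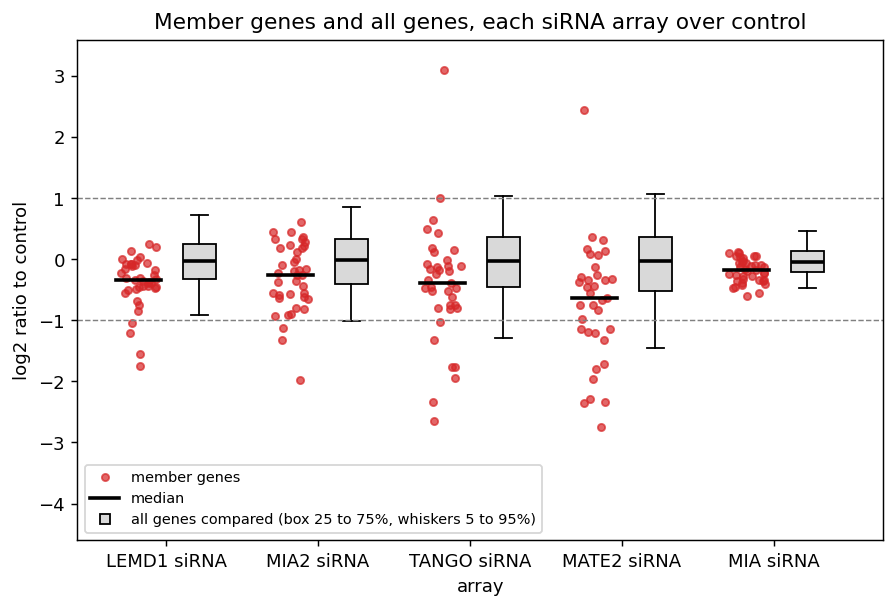
Log2 ratio to control (y axis) on each siRNA array (x axis), with a red point for each interferon-stimulated gene, a black bar at their median, and a box for all genes compared (25 to 75%, whiskers 5 to 95%). Dashed lines mark 2-fold. The medians of the list lie between -0.64 (MATE2) and -0.18 (MIA).

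All 5 of these comparisons share the single control array, so they are not independent of one another. The array labelled MIA siRNA, which was within 2-fold of control for all 38 genes compared, was therefore used as a second point of reference. Because it lay that near control on these same genes, calls against both arrays are not independent of each other. Against MIA, the median log2 ratio of the list was -0.17 on LEMD1, -0.11 on MIA2, -0.17 on TANGO and -0.37 on MATE2. The medians of all genes were -0.019, -0.002, -0.025 and -0.031 in that order. On MIA2 the list was then evenly divided, with 20 genes below MIA and 18 above. Genes at least 2-fold lower than on both MIA siRNA and control numbered 2 of 38 on LEMD1 (2.59% of all genes compared), 1 of 38 on MIA2 (2.85%), 6 of 37 on TANGO (6.63%) and 10 of 35 on MATE2 (8.76%). BST2 and OASL were higher than on both on TANGO (3.96%), and BST2 on MATE2 (4.02%), while none was on LEMD1 (1.43%) or MIA2 (2.05%). Only HERC5 was lower than both on all 4 of these arrays. The share of all genes that were so on all 4 was not computed. LEMD1 and MIA2, moreover, were at least 2-fold different in only 0.904% of all genes.

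HERC5, the ligase that joins the ubiquitin-like protein ISG15 to new targets, had the most even fall. Its signal was 97.6 on the LEMD1 siRNA array, 83.0 on MIA2, 96.05 on TANGO and 67.0 on MATE2, against 256.5 on MIA and 327.5 on control. The 4 low arrays lay close together and well below the other 2. The log2 ratios to control were -1.75, -1.98, -1.77 and -2.29 in that order, or 3.36-fold to 4.89-fold lower, and -0.35 on MIA. Against MIA they were -1.39, -1.63, -1.42 and -1.94. HERC6, its neighbour on chromosome 4 and a related ligase, did not move with it: its ratios to control were -0.22 on LEMD1, -0.23 on MIA2, -0.15 on TANGO, -0.74 on MATE2 and -0.55 on MIA. UBE2L6, the enzyme that hands ISG15 to the ligase, had ratios of -0.09, 0.46, -0.08, 0.32 and 0.02 in the same order. USP18, which removes ISG15 and also dampens the interferon receptor, lay between -0.79 (TANGO) and 0.10 (MATE2). Of the 4 measured genes of the ISG15 system, HERC5 alone was called on any array.

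IRF7, the transcription factor that amplifies interferon production, was lower on the same 4 arrays. Its signal was 193 on the LEMD1 siRNA array, 160.0 on MIA2, 117 on TANGO and 102 on MATE2, against 288 on MIA and 397.6 on control. The ratios to control were -1.04, -1.31, -1.77, -1.96 and -0.46 (MIA), and the LEMD1 value stands at the edge of the 2-fold rule. Against the array labelled MIA siRNA the ratios were -0.58 on LEMD1, -0.85 on MIA2, -1.30 on TANGO and -1.50 on MATE2, so on the first 2 arrays the call rests on the control array. The MIA array lay between the 4 low arrays and control.

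IFI44L, a GTP-binding antiviral protein, was lower on 3 arrays. Its signal was 82.0 on the LEMD1 siRNA array, 110.0 on MIA2, 237.9 on TANGO, 103.9 on MATE2 and 157 on MIA, against 239 on control. TANGO was level with control at -0.01, while LEMD1, MIA2 and MATE2 were at -1.54, -1.12 and -1.20. Against MIA the same arrays were at -0.94, -0.52 and -0.60, none of them 2-fold. IFI44, its neighbour on chromosome 1, was at -0.06 on LEMD1, 0.37 on MIA2, -0.48 on TANGO and -0.66 on MATE2.

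The promoters of HERC5 and IFI44L are shown because these genes were lower on 3 or more arrays, those of IFITM3 and IFITM1 because these bright genes changed on none, and that of BST2 because it rose (chosen after its values were seen). Each run is the 200 bases before the start of the RefSeq gene (GRCh38.p14), read 5′ to 3′ along the gene's strand. Capitals mark the core letters of the ISRE, which are GAAA, any 2 bases and GAAA again, searched on both strands with overlaps allowed. The regions are chr4:88456919-88457118 (plus strand) for HERC5, chr1:78620248-78620447 (plus) for IFI44L, chr11:320861-321060 (minus) for IFITM3, chr11:313840-314039 (plus) for IFITM1 and chr19:17405631-17405830 (minus) for BST2.
HERC5: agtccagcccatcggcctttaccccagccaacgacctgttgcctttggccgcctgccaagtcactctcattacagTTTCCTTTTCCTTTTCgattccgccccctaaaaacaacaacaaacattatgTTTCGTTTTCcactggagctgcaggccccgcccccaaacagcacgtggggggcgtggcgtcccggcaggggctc
IFI44L: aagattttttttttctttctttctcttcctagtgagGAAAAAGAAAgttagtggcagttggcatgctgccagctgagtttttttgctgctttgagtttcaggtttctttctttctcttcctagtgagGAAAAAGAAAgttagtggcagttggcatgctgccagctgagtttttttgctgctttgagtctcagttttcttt
IFITM3: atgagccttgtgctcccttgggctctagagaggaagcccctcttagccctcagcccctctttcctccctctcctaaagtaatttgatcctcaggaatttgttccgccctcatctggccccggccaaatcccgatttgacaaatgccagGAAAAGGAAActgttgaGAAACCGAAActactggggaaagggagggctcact
IFITM1: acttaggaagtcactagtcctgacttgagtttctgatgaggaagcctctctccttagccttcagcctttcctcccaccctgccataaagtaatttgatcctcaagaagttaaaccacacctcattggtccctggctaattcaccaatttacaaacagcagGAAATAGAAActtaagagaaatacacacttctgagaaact
BST2: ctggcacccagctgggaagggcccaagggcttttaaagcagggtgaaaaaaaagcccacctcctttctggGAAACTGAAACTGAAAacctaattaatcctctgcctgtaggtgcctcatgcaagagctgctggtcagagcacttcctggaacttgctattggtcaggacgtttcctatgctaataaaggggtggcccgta
HERC5 holds 3 matches, all on the opposite strand and the first pair overlapping, and IFI44L holds 2 inside a repeated stretch. IFITM3 holds 2, IFITM1 1 and BST2 an overlapping pair, so genes that fell, rose and stayed level all carry the letters.

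Of the 42 genes, 33 had a promoter window of 300 bases (250 before the start and 50 after) in the RefSeq table, and 22 of these held the ISRE core letters (66.7%), against 4.38% of 27305 genes. The letters TTCNNNGAA, the GAS element bound by STAT dimers, which is the same on both strands, were in 8 of 33 windows (24.2%), against 9.38% of all genes. IRF1, IRF9, IFI35, OAS1, IFI27, IFITM1, MX1 and BST2 were the 8. Lower genes were found with and without the ISRE core. On the array labelled MATE2 siRNA, where 11.7% of all genes compared were lower, 7 of 21 genes with the core were lower. Their median log2 ratio was -0.55. Of 8 genes without the core 4 were lower, with a median of -0.99. SAMHD1 and XAF1, also without the core, were left out there as near background, each at least 3.57-fold lower. On LEMD1 the medians were -0.35 and -0.32. No window is given here for IRF7, TRIM22 and 7 other genes.

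**Figure D3:**
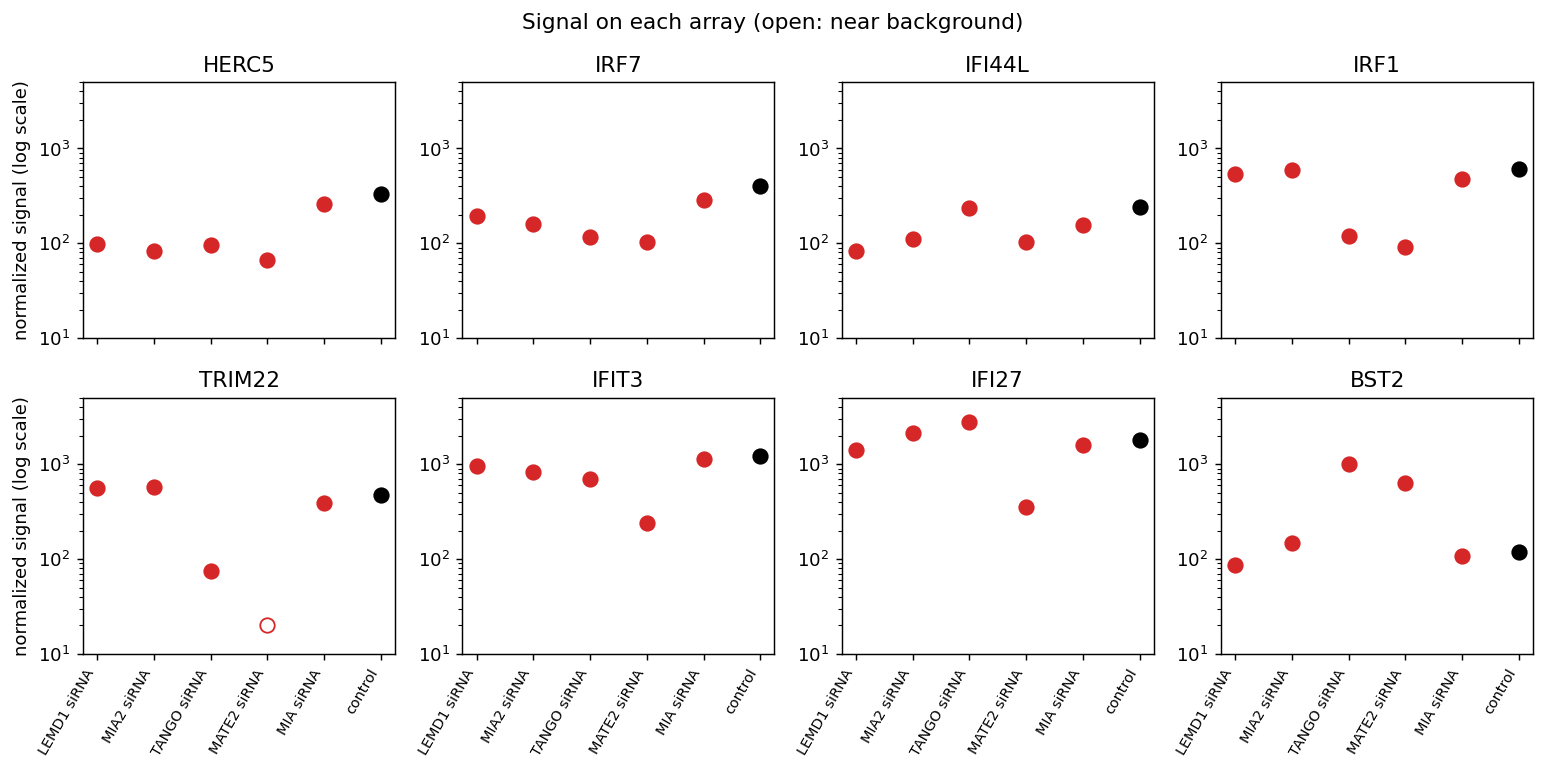
Normalized signal (y axis, log scale) of 8 genes on the 5 siRNA arrays (red) and control (black), 1 point per array, with an open point for a spot near background. HERC5 and IRF7 are low on 4 arrays, IRF1 and TRIM22 on TANGO and MATE2, IFIT3 and IFI27 on MATE2 alone, and BST2 is high on TANGO (1008) and MATE2 (641.6).

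Of the transcription factors, IRF1, which switches on both interferon and its targets, had a signal of 538.6 on the LEMD1 siRNA array, 589.8 on MIA2, 120.6 on TANGO, 90.85 on MATE2 and 481 on MIA, against 609 on control. Only TANGO and MATE2 were low, at log2 ratios of -2.34 and -2.75, or 5.05-fold and 6.70-fold below control, and the second probe of IRF1 gave -2.64 and -2.32. The other 3 ratios were -0.18 (LEMD1), -0.05 (MIA2) and -0.34 (MIA).

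STAT2, the partner of IRF9 in the complex that binds the ISRE, was at 280.6 on LEMD1, 198.6 on MIA2, 95.5 on TANGO, 236.5 on MATE2 and 269.5 on MIA, against 369 on control. TANGO stood alone, at -1.95, and all other arrays were within 2-fold of control. IRF9 was at 234.7 on LEMD1, 243.9 on MIA2, 375 on TANGO, 185.6 on MATE2 and 309.9 on MIA, against 329 on control. It was thus highest on the array where STAT2 was lowest. Of the 4 factors, 3 were lower on TANGO, 2 on MATE2, and IRF7 alone on LEMD1 and MIA2, where 9.09%, 11.7%, 3.98% and 5.21% of all genes were lower.

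Among the RNA sensors, RIGI was at 160.9 on LEMD1, 141.1 on MIA2, 160.2 on TANGO, 121.6 on MATE2 and 231 on MIA, against 269 on control. It was below control on each array, by -0.74, -0.93, -0.75, -1.14 and -0.22 on the log2 scale, and passed 2-fold on MATE2 alone. IFIH1, the sensor MDA5, had ratios of -0.47, -0.80, -0.79, -0.55 and -0.32 and passed on none. DHX58, which tunes both sensors, lay between -0.19 (TANGO) and 0.37 (MATE2).

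The IFIT proteins, which bind viral RNA, parted on the array labelled MATE2 siRNA. IFIT3 was at 948.6 on LEMD1, 820.3 on MIA2, 699 on TANGO, 241.9 on MATE2 and 1141 on MIA, against 1230 on control. The ratio on MATE2 was -2.35, or 5.08-fold lower, and the others lay between -0.81 and -0.11. IFIT1 was at 291.0 on MATE2, against 490.7 on control, a ratio of -0.75, and IFIT5 at 144.6 against 128, a ratio of 0.18. IFIT2, beside IFIT3 on chromosome 10, was near background on TANGO, MATE2 and MIA and at 40.54 on control, which allows only folds of at least 1.29, 1.29 and 1.05.

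Of the OAS enzymes, which make the oligoadenylates that activate RNase L, OAS1 was at 459 on LEMD1, 477 on MIA2, 652.9 on TANGO, 322.9 on MATE2 and 647.5 on MIA, against 736.7 on control. It was called on MATE2 alone, at -1.19. OAS2 and OAS3, from the same cluster on chromosome 12, stayed within -0.62 and 0.34 of control on all 5 arrays. OASL, an OAS-like protein without the enzyme activity, went up on one array: it was at 353 on TANGO, against 124 on LEMD1, 120 on MIA2, 140 on MATE2, 137 on MIA and 175.6 on control. Its ratio to control there was 1.01, at the edge of the rule, and to MIA 1.37.

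ISG20, an exonuclease that degrades single-stranded RNA, was at 84.8 on LEMD1, 111 on MIA2, 154 on TANGO, 214.6 on MATE2 and 203.5 on MIA, against 194.9 on control. LEMD1 was lowest, at -1.20 to control and -1.26 to MIA, and MIA2 followed at -0.81. RSAD2, viperin, lay between -0.34 (MATE2) and 0.43 (TANGO) by its brightest probe, and another probe gave 1.21 on TANGO. SAMHD1, which lowers the nucleotide pool, was at 86.2 on LEMD1, 75.8 on MIA2, 78.5 on TANGO, near background on MATE2 and at 88.4 on MIA, against 112 on control. It was at least 3.57-fold lower on MATE2 and had ratios of -0.38, -0.57, -0.52 and -0.34 on LEMD1, MIA2, TANGO and MIA.

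Of the 5 GTPases, MX1, GBP1 and IFI44 were lowest on MATE2, IFI44L on LEMD1 and MX2 on MIA2. MX1, a dynamin-like GTPase that traps viral particles, was at 199.9 on LEMD1, 246 on MIA2, 273.6 on TANGO, 109 on MATE2 and 273 on MIA, against 359 on control. Its ratios were -0.85, -0.55, -0.39, -1.72 and -0.40. MX2, next to it on chromosome 21, lay between -0.35 and 0.07. GBP1, a guanylate-binding protein induced mainly by interferon gamma, was at 268 on LEMD1, 205 on MIA2, 113.9 on TANGO, 105.0 on MATE2 and 226 on MIA, against 232.6 on control. TANGO and MATE2 were low, at -1.03 and -1.15, and the first is at the edge of the rule.

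The membrane and secreted products showed the one large rise. BST2, or tetherin, which holds budding viruses at the cell surface, was at 86.4 on LEMD1, 148.8 on MIA2, 1008 on TANGO, 641.6 on MATE2 and 108 on MIA, against 117.6 on control. TANGO and MATE2 were 8.57-fold and 5.46-fold above control, log2 ratios of 3.10 and 2.45, and the other arrays lay between -0.45 and 0.34. Against MIA the ratios were 3.22 on TANGO and 2.57 on MATE2. IFI27, a small membrane protein of mitochondria, was at 1417 on LEMD1, 2131 on MIA2, 2809 on TANGO, 356.5 on MATE2 and 1614 on MIA, against 1804 on control. MATE2 was 5.06-fold lower, at -2.34, its second probe gave -2.85, and TANGO was at 0.64 with a second probe at 0.66. LGALS3BP, a secreted glycoprotein, and IFI6 had ratios between -0.65 and 0.05 on every array.

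TRIM22, a ubiquitin ligase of the tripartite motif family, was at 555 on LEMD1, 572 on MIA2, 75.01 on TANGO, near background on MATE2 and 394 on MIA, against 468.5 on control. TANGO was 6.25-fold lower and MATE2 at least 14.9-fold lower, while the other arrays were within 0.29 of control on the log2 scale. XAF1, which opposes inhibitors of apoptosis, was at 93.9 on LEMD1, 98.5 on MIA2, near background on TANGO and MATE2 and at 94.75 on MIA, against 112 on control. It was at least 3.57-fold lower on both TANGO and MATE2. IFI35 was at 668 on LEMD1, 901 on MIA2, 265 on TANGO, 266 on MATE2 and 604 on MIA, against 662 on control, with ratios of -1.32 on both TANGO and MATE2. PARP9, of the family of ADP-ribosyltransferases, was at 640.6 on LEMD1, 662.8 on MIA2, 518.6 on TANGO, 228.5 on MATE2 and 595.7 on MIA, against 790.8 on control. It was lower on MATE2 alone, at -1.79, and the related PARP12 was just inside the limit there, at -0.97.

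Set against one another, the arrays fell into a few patterns. LEMD1 over MIA2 had no gene of 39 past 2-fold in either direction (0.299% of all genes were lower and 0.605% higher), and the widest ratios were -0.79 for BST2 and 0.50 for STAT2. LEMD1 over MIA had HERC5 and ISG20 lower (2.90%) and none higher (2.11%), and MIA2 over MIA had HERC5 lower (3.14%) and none higher (2.49%). In TANGO over MATE2, 8 of 35 genes were higher (6.73% of all genes), namely IFI27, IFI44L, IFIT3, IRF9, MX1, OAS1, OASL and PARP9, and STAT2 was lower (5.90%). IFI27 differed most, at 2.98, and STAT2 stood at -1.31. Of all genes compared, 12.6% were 2-fold different between TANGO and MATE2, beside 25.7% of the list.

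In LEMD1 over TANGO, GBP1, IFI35, IRF1, STAT2 and TRIM22 were higher (7.52%) and BST2, IFI44L and OASL lower (7.03%). In LEMD1 over MATE2, GBP1, IFI27, IFI35, IFIT3, IRF1 and PARP9 were higher (10.2%) and BST2 and ISG20 lower (6.49%). In MIA2 over TANGO, IFI35, IRF1, STAT2 and TRIM22 were higher (8.32%) and BST2, IFI44L, OASL and SAMD9 lower (7.6%). In MIA2 over MATE2, IFI27, IFI35, IFI44, IFIT3, IRF1, MX1 and PARP9 were higher (9.18%) and BST2 was lower (6.4%). TANGO over MIA had 6 genes lower (7.56%) and 2 higher (5.57%), and MATE2 over MIA had 11 lower (9.23%) and 1 higher (5.19%), PARP12 at -1.09 being the one lower there and not against control.

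**Figure D4:**
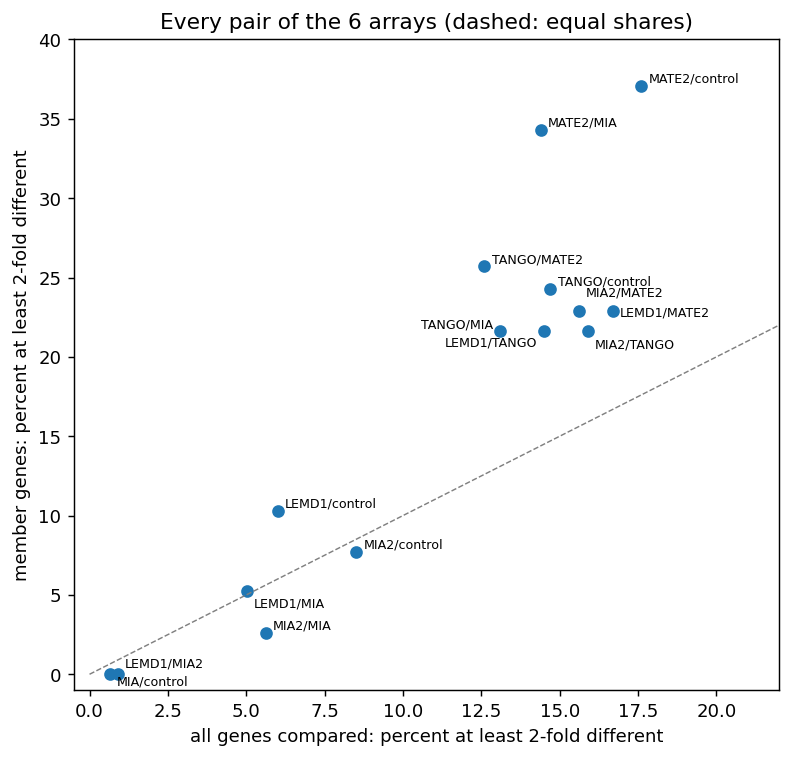
Share of interferon-stimulated genes (y axis, percent) against share of all genes compared (x axis, percent) that were at least 2-fold different, for each of the 15 pairs of arrays, with a dashed line at equal shares. MATE2 over control lies highest, at 37.1% and 17.6%, and LEMD1 over MIA2 and MIA over control lie at 0% for the list.

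The interferons and their receptors were followed as context. Of 10 interferon genes, 9 had a named probe, and none changed by 2-fold on any array in the 5 to 7 that could be compared. IFNB1, the gene of interferon beta, was at 92.0 on LEMD1, 109 on MIA2, 123.5 on TANGO, 83.6 on MATE2 and 95.9 on MIA, against 74.6 on control, low signals on each array. IFNE and IFNK were near background throughout. Of 11 measured receptor and JAK-STAT genes, none was lower on LEMD1 or MIA (3.98% and 0.258% of all genes). On MIA2, JAK2 was lower, at -1.22, 1 of 11 genes compared (5.21% of all genes). On TANGO, JAK1 at -1.15 and JAK2 at -1.89 were lower, 2 of 11 genes (9.09% of all genes). On MATE2, IFNAR1, a chain of the type I receptor, at -1.63, IFNGR2 at -1.25, JAK1 at -1.72 and STAT3 at -1.04 were lower, 4 of the 9 genes compared there (11.7% of all genes). JAK2 and TYK2, a further JAK kinase, were near background on MATE2, at least 3.89-fold and 2.47-fold lower. None of these genes was higher on any array.

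Of 14 genes of RNA and DNA sensing, TICAM1, the adaptor of TLR3, was lower on LEMD1 and MIA2, at -1.53 and -1.80, and IRF3 on TANGO at -1.20. EIF2AK2, the kinase PKR, and ADAR, which edits double-stranded RNA, were lower on MATE2 at -1.52 and -1.44. These are 1 of 13 genes compared on each of LEMD1, MIA2 and TANGO, and 2 of 12 on MATE2. Of all genes, 3.98%, 5.21%, 9.09% and 11.7% were lower on these arrays in that order. STING1, the adaptor of DNA sensing, was near background on MATE2, at least 2.52-fold lower. Of 6 feedback genes, PIAS1, PTPN2, TRIM21 and USP15 could be compared. SOCS3 was near background on every array, and SOCS1 had no good spot on control. PTPN2 was lower on TANGO at -1.20 and MATE2 at -1.04, and PIAS1 on MATE2 at -1.02. These are 1 of 4 genes on TANGO (9.09% of all genes) and 2 of 4 on MATE2 (11.7%).

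Of 26 further interferon-stimulated genes, 17 to 21 could be compared per array. They were lower in 2 of 21 on LEMD1, 3 of 20 on MIA2, 7 of 18 on TANGO, 3 of 17 on MATE2 and 0 of 20 on MIA, beside 3.98%, 5.21%, 9.09%, 11.7% and 0.258% of all genes in that order. Spots near background give bounds apart from these counts. On TANGO, 2 more genes were at least 2-fold lower, APOL1 (at least 5.58-fold) and CCL5 (at least 3.40-fold). On MATE2, 3 more were, EPSTI1 (at least 6.34-fold), SP100 (at least 7.89-fold) and CCL5 (at least 3.26-fold). The shares of all genes leave such bounds out, and no share with bounds was computed to set beside them. APOL6, a member of the apolipoprotein L family, was lower on 4 arrays, at -1.02 on LEMD1, -1.14 on MIA2, -2.31 on TANGO and -1.06 on MATE2, and GBP3 was lower on TANGO and MATE2, at -2.02 and -2.09. The chemokine gene CCL5 was lower on LEMD1 and MIA2, at -1.25 and -1.37, ZNFX1 on MIA2 and TANGO, at -1.01 and -1.07, and APOL1 on MATE2, at -1.26. Among genes with good spots on both arrays, EPSTI1 at -2.02, SP100 at -1.25, SP110 at -1.15 and BATF2 at -1.13 were lower on TANGO. IFI16, a sensor of DNA, was the only one higher, at 1.09 on LEMD1 and 1.002 on MIA2, and was at -0.99 on MATE2. The median of this list was -0.40, -0.40, -0.56, -0.52 and -0.10 on LEMD1, MIA2, TANGO, MATE2 and MIA, beside -0.02, -0.01, -0.03, -0.03 and -0.04 for all genes.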

How the data were processed

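Cy5-labelled RNA of HSC3 cells was measured on 6 CodeLink arrays, 1 per condition, with conditions taken from the deposited labels. The scanner values are intensity per spot, which the file headers trace to CodeLink Expression Analysis 5.0.0.31312 as run by the authors, each the spot mean less the local background median (checked on every unmasked spot). The authors also deposited a table of intensity values, quantile normalized with the Microarray Data Analysis Tool and linear, which served as an alternative.

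Of 53423 gene probes, 320 masked on any array were left out. The rest were quantile normalized over the 6 arrays (limma 3.58.1, R 4.3.3), floored at 1 and set on the log2 scale. Of 53103 probes, 23960 have 1 gene by the platform annotation or the accession, 898 several and 28245 none. STAT2 was named from the accession. With 1 array per condition no test was run.

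The genes, lists and rules were chosen with earlier results of these data known. All list genes are accounted for, and those 2-fold changed on any array and the 3 brightest are given on every array. Promoter sequences are from RefSeq, GRCh38.p14. The alternatives were median scaling, no background correction, normexp (offset 50), the deposited table, no filter on flags, the mean of good probes, 50 added to the signal, normalization without TANGO and MATE2 (for the other arrays), and MIA siRNA as comparator. Some genes are not reported here.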

Additional observations from a re-analysis of the deposited data

How the results depend on the processing

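Under 9 alternatives no ratio of a named gene that was past 2-fold changed its sign. Of 832 values of the 20 named genes, within 2-fold or past it, 797 stayed on the same side of the 2-fold rule and 35 crossed it. IRF7 and ISG20 on LEMD1, IFI44L on MIA2 and MATE2, RIGI on MATE2 and GBP1 and OASL on TANGO were among the values near the limit. Part of the 797 was fixed in advance. The 99 values with no filter on flags could not differ, as only genes with good spots were followed. The 99 with the mean of good probes could differ only for genes with more than 1 probe. The median of the list stayed below 0 on every array under each alternative. With 50 added to the signal, normexp or uncorrected background, 2 genes were lower on LEMD1 in place of 4, and 1 was higher on TANGO in place of 2. With normexp, 9 were lower on MATE2 in place of 12. With median scaling, too, 1 was higher on TANGO. The shares of all genes called under these settings were not computed, so whether the changes in count are particular to the list is not known. With MIA siRNA as comparator, 2 genes were lower on LEMD1 (2.90% of all genes) and 1 on MIA2 (3.14%). The medians were then -0.17 on LEMD1, -0.11 on MIA2, -0.17 on TANGO and -0.37 on MATE2. With no background correction the medians were -0.23 on TANGO and -0.47 on MATE2, with no filter on flags -0.74 on MATE2, and with median scaling -0.24 on LEMD1, where the median of all genes was 0.11 in place of -0.02. No paired analysis was possible because each condition has 1 array. For the same reason no array could be left out within a condition. The number of arrays and the signal over background limit what can be called, and 22343 to 25425 gene probes per array were near background.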
